A study of Homo sapiens with 9 samples.

Results

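The genes of G2 and mitosis are the 60 genes listed by name for the last part of the cell cycle: the CDK1 and cyclin B switch that starts mitosis, the mitotic kinases, the spindle checkpoint, kinetochore and spindle proteins, condensins, and the factors that end mitosis. All 60 were present among the 16586 genes of the deposited table, and 59 had enough reads to be tested. The list names genes by their function, and no value in these libraries enters the rule. They were measured by RNA-seq in Z138, a human cell line derived from mantle cell lymphoma, in 3 groups of 3 libraries each: unmodified cells (wild type), cells labelled as a knockout of SOX11, and knockout cells labelled as a SOX11 rescue, which therefore carry the knockout too. SOX11 is a transcription factor that mantle cell lymphomas typically express and that normal B cells lack. The labels do not say how the knockout or the rescue was made, whether either is 1 clone, or whether replicates were separate cultures, so p-values measure only the spread between these libraries. They give each library a batch that equals its replicate number, so that every batch holds 1 library of each group.

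SOX11 stood at 3800, 3845 and 3003 normalized counts in the wild type, at 901, 1335 and 862 in the knockout, and at 12818, 13849 and 12715 in the rescue. Transcript was thus lower in the knockout but not absent, and the rescue lay above the wild type rather than at its level. A normalized count is the read count of a gene after scaling for the depth of the library, recovered here from the deposited log2 values. The estimated depth was 30800000 to 40800000 reads per library. CD22, CD79A, CD79B, EBF1, MS4A1 and PAX5, markers of the B lineage, all passed the filter on low levels (CD79A averaged 8978 normalized counts in the wild type). So did CCND1 and SOX11, which mark mantle cell lymphoma rather than B cells. By contrast, 4 of 8 T and NK markers, 0 of 7 myeloid markers and 3 of 7 erythroid and stromal markers did.

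Entry into mitosis is driven by CDK1 bound to cyclin B. The kinase WEE1 holds CDK1 back by phosphorylation, the CDC25 phosphatases release it, and PLK1 and the Aurora kinases carry the program on through spindle assembly. Exit begins when CDC20 activates the anaphase-promoting complex, which marks securin (PTTG1) and cyclin B for destruction. Most of these genes are transcribed late in the cycle, under the MuvB complex with MYBL2 (B-MYB) and FOXM1, which acts through the CHR element, often with a CCAAT box bound by NF-Y. Their summed RNA in a culture therefore reflects how many cells are in G2 or mitosis as well as how much each cell makes, and fewer such cells and less RNA per cell cannot be told apart in bulk libraries.

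The letters of these elements were looked for in the promoters of the genes, taken from RefSeq on GRCh38.p14 as 250 bases before and 50 after each start. Both strands were searched for the CHR letters TTTGAA and for the CCAAT box, whose name gives its letters. The core that SOX proteins bind was searched as ACAAAG and, in its other common form, as ACAATG. The E2F core, searched as GGCGGGA, was added after the sequences had been seen, and matches of different motifs may overlap. The table held 50 of the 60 promoters. Those of AURKA, BIRC5, BUB3, FOXM1, HMGB2, KNL1, TPX2, TTK, UBE2C and WEE1 were not matched. The 30-base windows shown here centre on 1 match each, written 5′ to 3′ on the strand of the gene with CHR, CCAAT and E2F letters in capitals, as the reverse complement where the match is on the opposite strand. Windows around CHR letters come first, then those around a CCAAT box, and the 2 genes that were lower in the knockout come last.
PLK1: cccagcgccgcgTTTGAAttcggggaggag
CDC20: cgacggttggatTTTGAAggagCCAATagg
CCNB2: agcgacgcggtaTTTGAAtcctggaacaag
CDK1: gagtataataaaTTTGAActgtgCCAATgc
TOP2A: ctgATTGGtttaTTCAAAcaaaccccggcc
KIF15: ccaagcgccaaaTTCAAAtttgcggccatc
CCNB1: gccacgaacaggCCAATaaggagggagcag
PTTG1: gcggaagagCCAATTGGgccgcgagttgtg
CDC25B: cgcccaccccctTCCCGCCgccgggacata
MYBL2: gccgacgcgcttGGCGGGAgatagaaaagt
These windows lie at chr16:23678848-23678877 (PLK1), chr1:43358904-43358933 (CDC20), chr15:59105105-59105134 (CCNB2), chr10:60778158-60778187 (CDK1), chr17:40418030-40418059 on the minus strand (TOP2A), chr3:44761747-44761776 (KIF15), chr5:69167083-69167112 (CCNB1), chr5:160421795-160421824 (PTTG1), chr20:3786849-3786878 (CDC25B) and chr20:43667063-43667092 (MYBL2), on the plus strand except where stated. All lie before the RefSeq start of their gene, though GENCODE release 29 begins PLK1, CCNB1, CCNB2, KIF15, CDC25B and MYBL2 upstream of their windows and PTTG1 within its window.

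The CHR letters occurred in 37 of the 50 promoters (74%), against 15.4% of the 27305 promoters in the table. A CCAAT box occurred in 35 (70%, against 35.7%), and both together in 28 (56%, against 6.08%). In PLK1 and CCNB2 the CHR letters began 29 bases before the start, in KIF15 35 bases before it on the opposite strand, and in CDC20 65 bases before it. The SOX core was in 4 of the 50 promoters (8%, against 24.6%), those of KIF15, KIF20A, KIF20B and PTTG1. The E2F core was in 13 (26%, against 15.5%). Neither CHR letters nor a CCAAT box was found in 6 promoters, those of CDC25B, CDC25C, CENPE, CKAP2, KIF2C and MYBL2 (12%, against 54.96% of all promoters). A match of letters is a description of the window and not evidence that a factor binds there.

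Levels per length spanned a wide range within the program. In the wild type, HMGB2, a chromatin protein of the high mobility group, had the highest level at 267 ± 24.6 CPM per kilobase of exon (SD, n = 3), where CPM is the normalized count as a share of the total of the library. MYBL2 followed at 215 ± 7.77, then the checkpoint kinase BUB1 at 163 ± 15.2 and the DNA topoisomerase TOP2A at 144 ± 23.3. The BUB1 and TOP2A ranges overlapped (145 to 172 and 122 to 168), so these neighbours did not differ beyond their spread. PLK1 stood at 43.3, CDK1 at 39.1 and the proliferation marker MKI67 at 36.1 CPM per kilobase. CDC25C, the phosphatase related to CDC25B, was the lowest of the tested genes with a position at 4.90 ± 0.376.

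**Figure D1:**
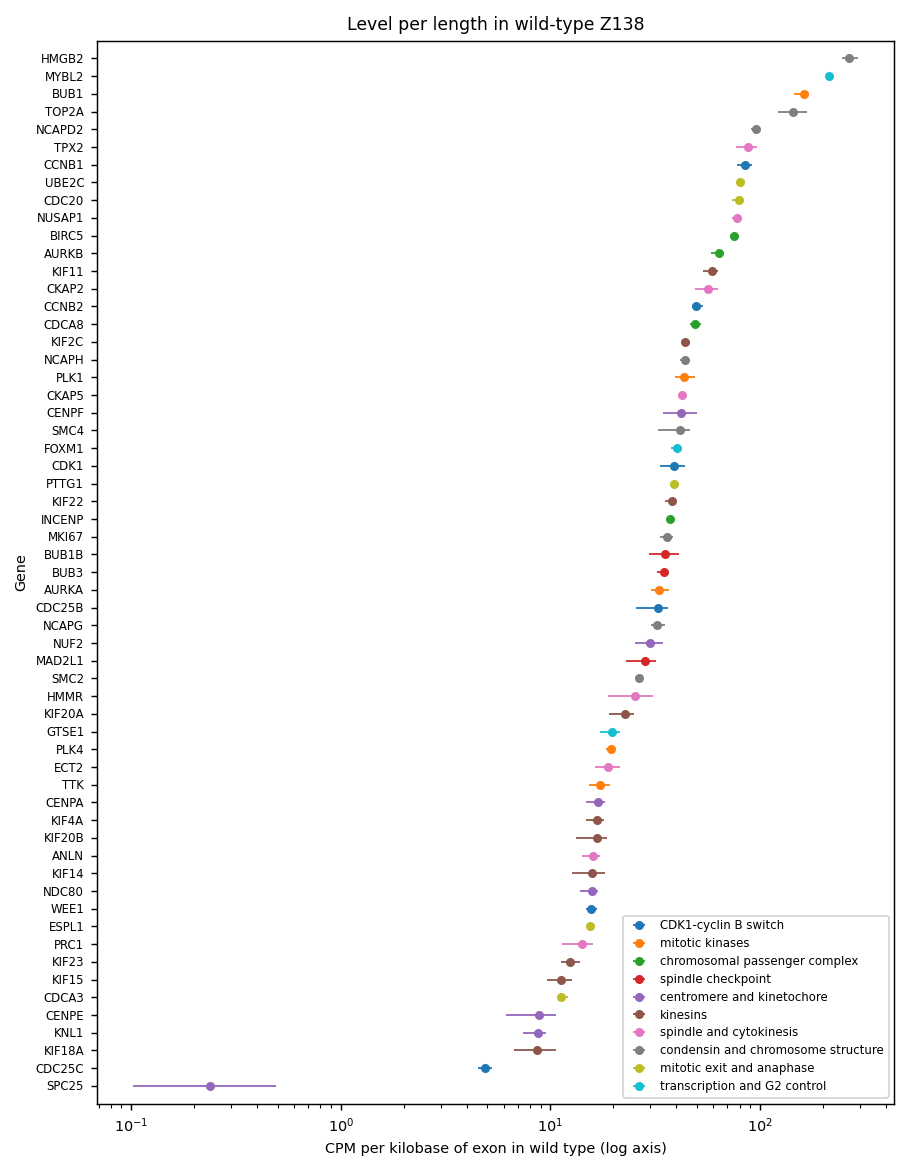
Level of each gene with a position in the wild-type libraries, as CPM per kilobase of exon on a log axis, with points at the mean of 3 libraries, bars from the lowest to the highest library and colours by role. HMGB2 (267), MYBL2 (215) and BUB1 (163) are at the top, CDC25C at 4.90 and SPC25 at 0.237 at the bottom.

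Genes of one complex were not all measured at like levels. NDC80 and NUF2, partners in the microtubule-binding complex of the outer kinetochore, had levels of 15.9 ± 1.79 and 29.8 ± 4.57 CPM per kilobase in the wild type, against 0.237 ± 0.222 for SPC25 of the same complex. In normalized counts SPC25 was at 7.43, 32.5 and 6.56 in the wild type, at 0, 21.8 and 22.7 in the knockout, and at 23.8, 17.7 and 1.40 in the rescue. It failed the filter and was not tested. Whether its low values reflect little RNA or the way reads were assigned to this gene was not tested either. KIFC1, a minus-end-directed kinesin, is also uncertain: its gene identifier in the table is not the one GENCODE release 29 gives for the primary assembly, and its normalized counts ranged from 36.2 in rescue replicate 3 to 118 in wild-type replicate 1. The other 59 genes lie on 19 chromosomes, and 18 of them share exon bases with a gene on the opposite strand, from which reads cannot be told apart because the labels do not say which libraries were stranded. PLK1 (chr16:23677656-23690367, sharing with ERN2), CDCA3 (with GNB3), HMMR and KIF20A are among these 18. BUB1B, CENPA, NUSAP1, PRC1 and WEE1 share exon bases with a gene on their own strand, which stranded libraries would not separate.

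**Figure D2:**
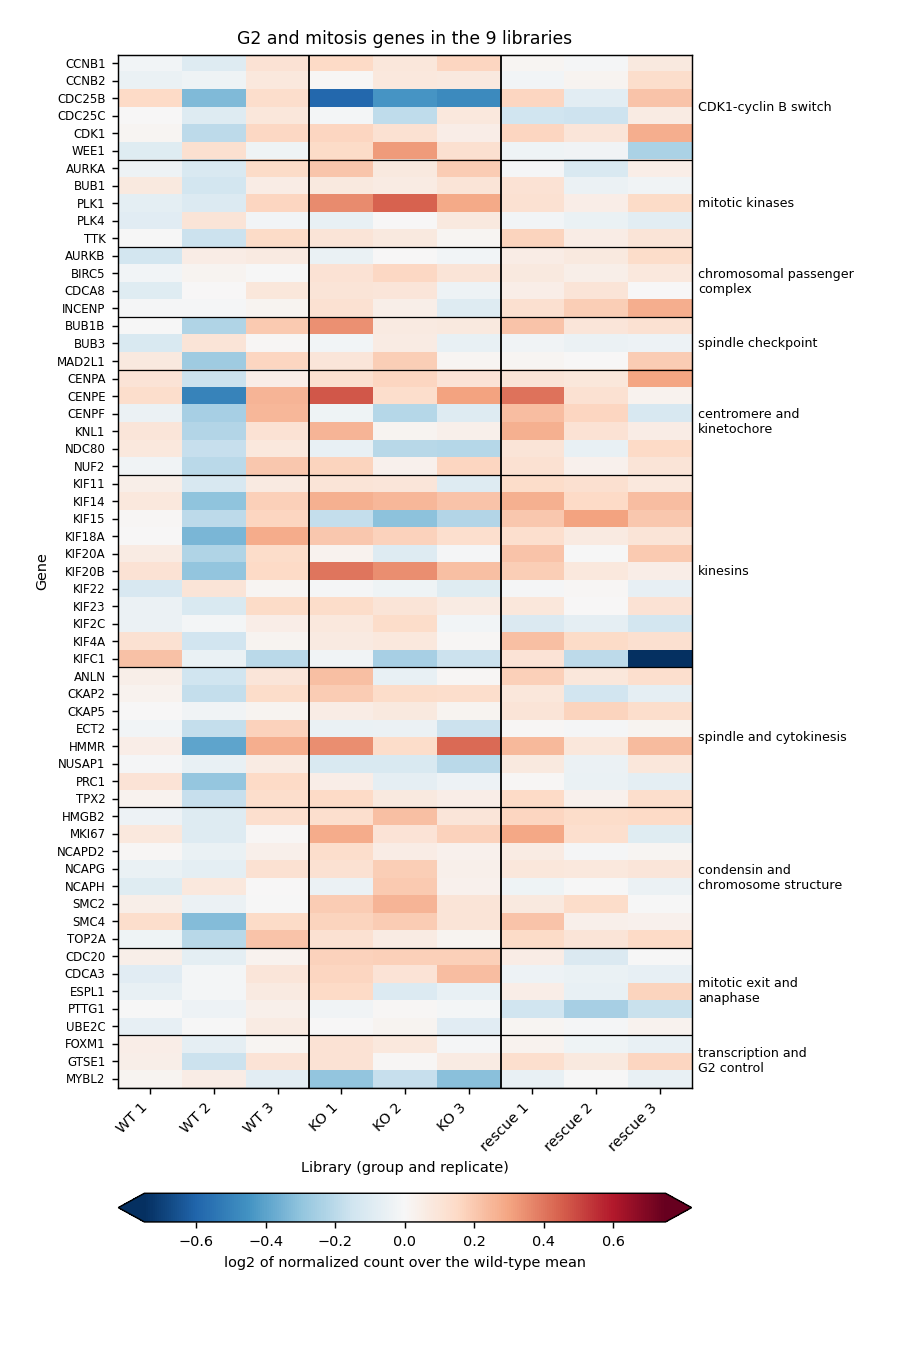
Each row is 1 of the 59 tested genes, grouped by role, and each column 1 library. Colour is the log2 of the normalized count over the wild-type mean of that gene, with colours saturating at 0.75 in either direction. The column of wild-type replicate 2 is mostly blue, as it was the lowest of its group for 43 of the 59 genes.

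In the knockout, the G2 and mitosis program stayed near its wild-type level. These genes made up 1.22% ± 0.102 of all normalized counts in the wild type and 1.27% ± 0.0231 in the knockout (SD, n = 3). Of the 59 tested genes, 3 passed the threshold (5.08%), against 12.7% of the 11542 genes tested. PLK1 rose, and CDC25B and MYBL2 fell. Of all genes tested, 5.36% were called higher and 7.37% lower. The test was limma on the deposited log2 values of all 9 libraries, with group means and no batch term. Benjamini-Hochberg adjustment was across the genes tested, with a threshold of 0.05. The ratios of mean normalized counts ran from 0.706 for CDC25B to 1.29 for PLK1, with a median of 1.05. The 95% confidence interval of the difference lay within 1.5-fold in either direction for 58 of the 59 genes, and for 11034 of the 11542 genes tested. These intervals are on the deposited scale, which compresses the change of weakly expressed genes.

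CDC25B (chr20:3786772-3806121, plus strand), one of the phosphatases that activate CDK1, had 5507, 3948 and 5425 normalized counts in the wild-type libraries and 3298, 3645 and 3566 in the knockout. The groups did not overlap, although wild-type replicate 2 was close to the knockout libraries. The mean fell from 4960 ± 877 to 3503 ± 182, which is 1.42-fold lower, with a log2 difference of -0.42 ± 0.105 (SE) and an adjusted p of 0.0236 in limma. Within batches 1, 2 and 3 the knockout stood at 0.599, 0.923 and 0.657 of the wild type. Omitting wild-type replicate 1 or 3, or knockout replicate 1 or 3, ended the call.

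MYBL2 (chr20:43667019-43716496, plus strand), the MYB protein of the MuvB complex that drives many of the other genes, had 21272, 21802 and 19886 normalized counts in the wild type and 17129, 18638 and 16899 in the knockout. Every knockout library lay below every wild-type library. The decrease was 1.20-fold, with a log2 difference of -0.25 ± 0.0543 and a limma adjusted p of 0.0112, and within-batch ratios were 0.805, 0.855 and 0.850. It was not called without knockout replicate 1 or 3. FOXM1, the forkhead factor that acts with it, did not pass the test, with a ratio of 1.04 and a limma adjusted p of 0.552.

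PLK1, the polo-like kinase needed for mitotic entry, spindle assembly and cytokinesis, had 6884, 6735 and 8105 normalized counts in the wild type and 9268, 9840 and 8823 in the knockout. The lowest knockout library lay above the highest wild-type library. The mean rose 1.29-fold, with a log2 difference of 0.34 ± 0.0677 and a limma adjusted p of 0.00693. Ratios within batches were 1.35, 1.46 and 1.09. Its call held when any single library was left out and was lost when the whole of batch 1 or of batch 2 was.

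**Figure D3:**
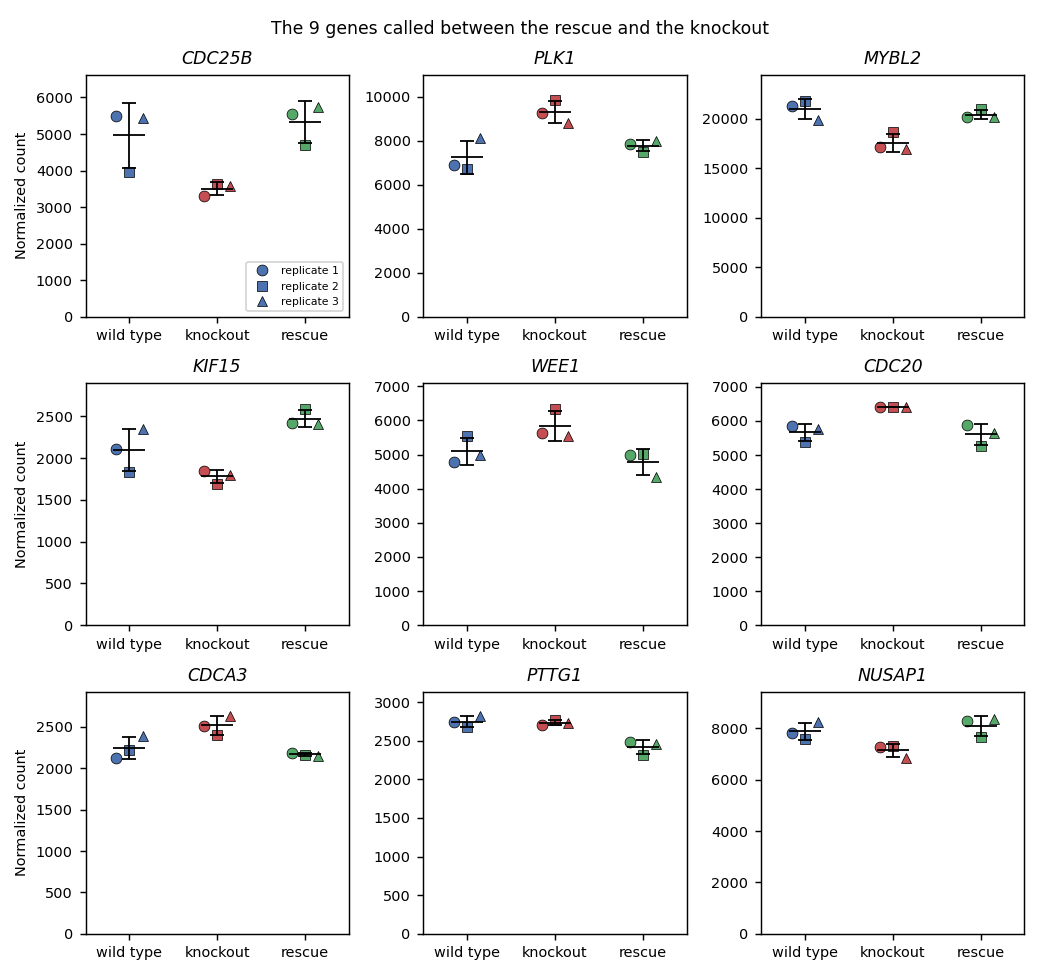
Normalized counts in each library of the 9 genes called between rescue and knockout, with points shaped by replicate, horizontal marks at the group mean and bars of 1 SD (n = 3), on axes that start at 0. CDC25B and MYBL2 are lowest in the knockout and PLK1 highest there, while PTTG1 is at a like level in the wild type and the knockout (means 2748 and 2732) and lower in the rescue (2416).

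By role, the switch genes divided. CDK1 had a ratio of 1.08 and cyclin B1 (CCNB1) one of 1.10, with limma adjusted p-values of 0.440 and 0.180, and CCNB2 stood at 1.04. WEE1, the kinase that opposes CDC25B, had 4785, 5533 and 4976 normalized counts in the wild type and 5627, 6351 and 5545 in the knockout, a ratio of 1.15 that did not pass the test (limma adjusted p = 0.146). The other mitotic kinases were not called: AURKA had a ratio of 1.12, BUB1 one of 1.06 and PLK4, which duplicates centrioles, one of 1.01.

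None of the 4 genes of the chromosomal passenger complex, the 3 of the spindle checkpoint, the 6 tested of the centromere and kinetochore, the 11 kinesins, the 8 of spindle and cytokinesis, the 8 of condensin and chromosome structure or the 5 of mitotic exit passed the test in this comparison. With the replicate number as a block, described below, KIF20B, HMMR, SMC2 and CDC20 of these did. Survivin (BIRC5) had a ratio of 1.09 and AURKB, the kinase of the passenger complex, one of 0.985. Among checkpoint genes BUB1B had a ratio of 1.12 and BUB3 one of 0.998. CENPE, the kinetochore motor, had the highest ratio of its list at 1.24, with wild-type values of 3216, 2073 and 3500, and NDC80 the lowest at 0.897.

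Among kinesins the ratios ran from 0.849 for KIF15, a spindle motor that backs up KIF11, to 1.25 for KIF20B, which acts in cytokinesis. HMMR, a spindle-associated protein that also binds hyaluronan, had a ratio of 1.24 and NUSAP1, which bundles spindle microtubules, one of 0.906. All 8 genes of condensin and chromosome structure had a difference above 0, between 0.06 and 0.18 on the deposited log2 scale, with MKI67 at a ratio of 1.14 and TOP2A at 1.05. Their shared sign leans partly on wild-type replicate 2. That library deviated from its group mean by -0.29 in SMC4 and -0.195 in TOP2A, and lay below it in all of these genes but NCAPH. At an unadjusted p under 0.05 limma counted 15 of the 59 (25.4%), against 26.6% of all genes tested. UBE2C, the ubiquitin-conjugating enzyme of the anaphase-promoting complex, had a ratio of 0.986.

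Over the 59 genes the median difference was 0.06 on the deposited log2 scale, against 0.00 over all genes tested, with 42 above 0 and 17 below. Single libraries moved this median both ways: it was 0.02 without wild-type replicate 2, 0.10 without wild-type replicate 3 and 0.09 without knockout replicate 3. It was 0.02 without batch 2 and 0.12 without batch 3. The groups did not overlap for 14 of the 59 genes, against 29.5% of all genes tested. When batch 1 was left out whole, 0 of the 59 were called, against 4.73% of all genes tested. With the replicate number as a block, 8 genes passed, 6 higher and 2 lower, against 21.5% of all genes tested. The 5 that joined were CDC20 (limma adjusted p = 0.0228 with the block), HMMR (0.0157), KIF20B (0.0213), SMC2, a condensin subunit (0.0286), and WEE1 (0.0291), all higher in the knockout. With the block and without wild-type replicate 2, a setting added after the data had been seen, 5 were called against 17.6% of all genes tested, 2 higher (PLK1 and HMMR) and 3 lower (CDC25B, MYBL2 and KIF15). CDC20, KIF20B, SMC2 and WEE1 were then not called.

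Between the rescue and the knockout, 9 of the 59 genes changed (15.3%), against 22.1% of all genes tested. CDC25B, KIF15, MYBL2 and NUSAP1 were higher in the rescue, and WEE1, PLK1, CDC20, CDCA3 and PTTG1 were lower. Of all genes tested, 11.5% were higher and 10.7% lower. With the replicate block 13 were called, 5 higher and 8 lower, against 31.2% of all genes tested. AURKA, CKAP2 and KIF2C joined as lower in the rescue and NDC80 as higher. The share of all normalized counts in these genes was 1.29% ± 0.0325 in the rescue (n = 3). The median difference was -0.02, against -0.01 over all genes tested, and 25 genes lay above 0 and 34 below. This median turned to 0.02 after quantile normalization. Leaving out any single knockout or rescue library brought the 9 calls down to between 3 and 5, against 14.9% to 17.5% of all genes tested. This comparison shares the knockout libraries with the one just described, so an opposite sign in both is partly built in.

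CDC25B had 5554, 4686 and 5750 normalized counts in the rescue, all above the 3 knockout libraries. It was 1.52-fold higher, with a log2 difference of 0.52 and a limma adjusted p of 0.00498, and within-batch ratios of 1.68, 1.29 and 1.61. The call held without any single library and was lost without batch 1 or batch 3. WEE1, which acts against CDC25B on CDK1, went the other way: 4983, 5015 and 4330 in the rescue against 5627, 6351 and 5545 in the knockout. Its groups did not overlap, the mean was 1.22-fold lower, and the limma adjusted p was 0.0252, a call lost without knockout replicate 2 or rescue replicate 3. CDK1 itself had a ratio of 1.05 and CCNB1 one of 0.930, neither called.

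KIF15 (chr3:44761717-44873376, plus strand) had 2416, 2591 and 2410 normalized counts in the rescue, against 1852, 1694 and 1799 in the knockout and 2116, 1834 and 2346 in the wild type. The rescue lay above every other library. It was 1.39-fold higher than in the knockout (log2 difference 0.36, limma adjusted p = 0.00312), with within-batch ratios of 1.30, 1.53 and 1.34. It was called under all 18 alternative settings tried, the only one of the 9 for which this held. Without batch 1 it was the only one called, against 9.91% of all genes tested.

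MYBL2 returned 20155, 20946 and 20166 normalized counts in the rescue, 1.16-fold above the knockout (limma adjusted p = 0.0172), a call lost without knockout replicate 1 or 3 or rescue replicate 2. NUSAP1 had 8287, 7648 and 8357 against 7285, 7302 and 6845, a 1.13-fold increase with a limma adjusted p of 0.0444. Both sets of libraries were separate. The NUSAP1 call was lost without any one knockout library and without rescue replicate 1 or 3, and also with no filter on low levels and with median centring.

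PLK1 had 7829, 7493 and 7992 normalized counts in the rescue, below the knockout and within the wild-type range. It was 1.20-fold lower than in the knockout, with within-batch ratios of 0.845, 0.762 and 0.906 and a limma adjusted p of 0.0267, and the call was lost without knockout replicate 1 or 2 or any one rescue library. CDC20, CDCA3 and PTTG1, 3 of the 5 genes of mitotic exit, were lower too. CDC20 had 5893, 5263 and 5659 in the rescue against 6399, 6404 and 6410 in the knockout, which agree closely, and 5850, 5391 and 5767 in the wild type.

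For CDC20, the activator of the anaphase-promoting complex, the rescue was 1.14-fold lower (limma adjusted p = 0.0334). CDCA3, part of a ubiquitin ligase that acts on WEE1, had 2188, 2166 and 2154 in the rescue against 2513, 2407 and 2635, a 1.16-fold decrease (limma adjusted p = 0.0404). PTTG1 (securin) had 2480, 2316 and 2452 against 2703, 2767 and 2724, a 1.13-fold decrease with a limma adjusted p of 0.0499, just inside the threshold. Its reads may be divided with PTTG2, a near-identical copy. Groups did not overlap for any of these genes. The CDC20 call was lost without any one knockout library or rescue replicate 2 or 3, and the CDCA3 call without knockout replicate 1 or 3 or any one rescue library. None of these exit calls held on the log2(CPM + 1) scale or after quantile normalization, and CDCA3 and PTTG1 also lost theirs with no filter on low levels. PTTG1 was lost under 13 of 18 settings, among them the omission of any one knockout or rescue library.

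**Figure D4:**
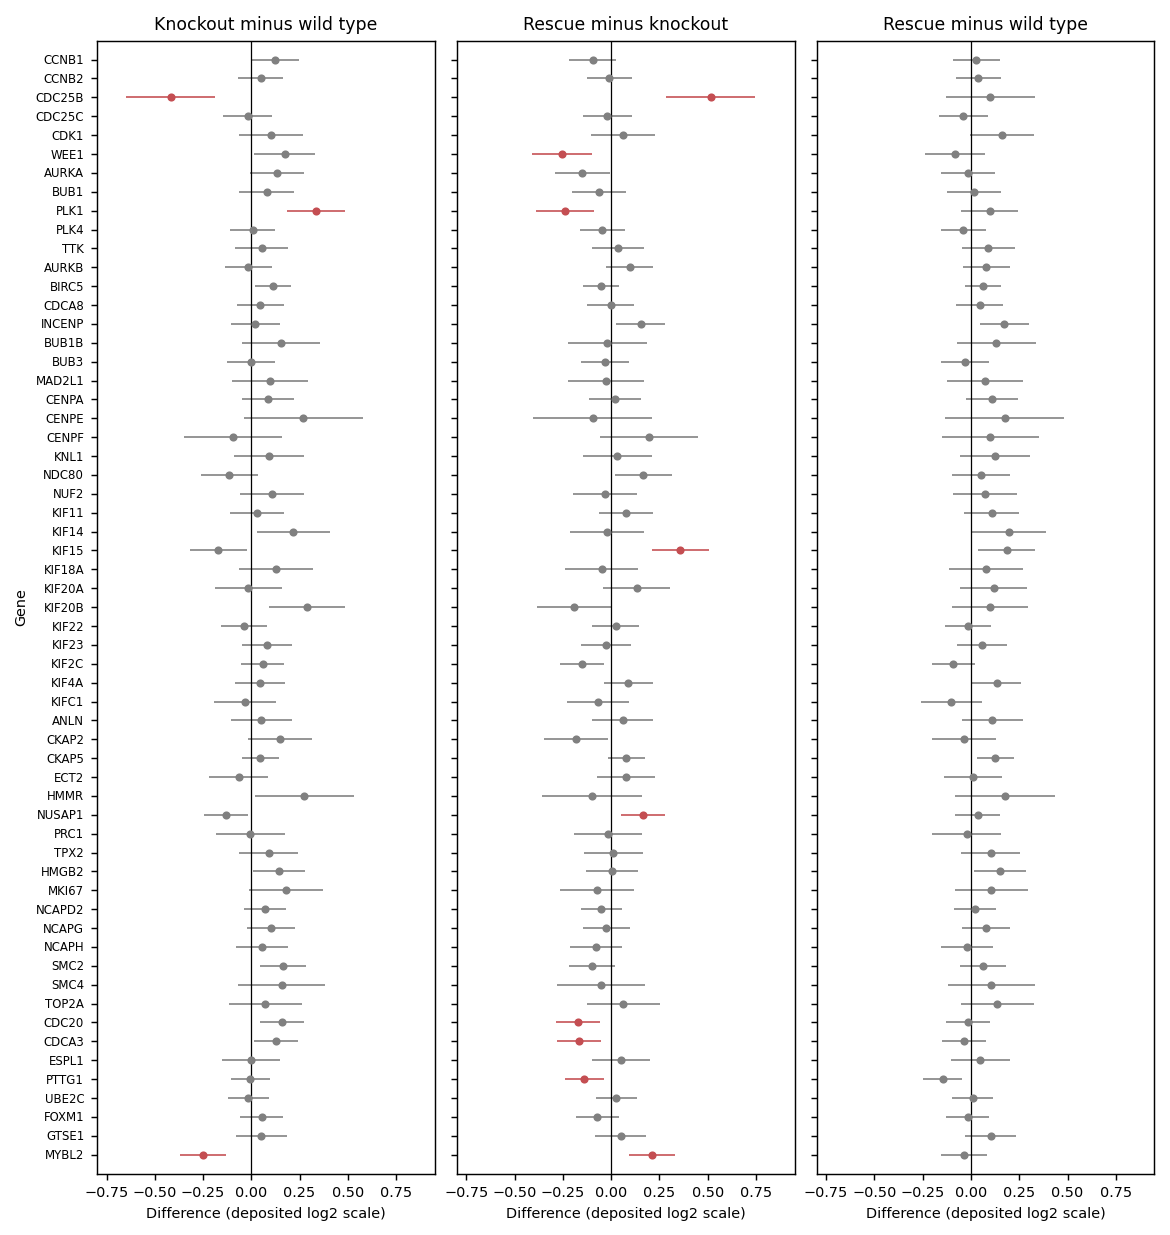
Difference of each tested gene on the deposited log2 scale in the 3 comparisons, with bars of the 95% confidence interval and called genes in red. Red points number 3 in the knockout minus wild type panel, 9 in the rescue minus knockout panel and 0 in the rescue minus wild type panel.

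The other roles kept the pattern of small differences between rescue and knockout. AURKA had a ratio of 0.884 and BUB1 one of 0.957, AURKB of 1.08 and BIRC5 of 0.962. TOP2A stood at 1.05, MKI67 at 0.952, FOXM1 at 0.946 and CCNB2 at 0.992, none called. No gene of the passenger complex, the checkpoint, the tested kinetochore genes or condensin and chromosome structure passed in this fit without a block. The replicate block called AURKA and, of the kinetochore genes, NDC80. Groups did not overlap for 21 of the 59 genes, against 41.8% of all genes tested. Under log2(CPM + 1), 6 of the 59 were called, 4 higher and 2 lower, against 21.5% of all genes tested. Under quantile normalization 7 were called, 5 higher and 2 lower, against 22.3%.

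None of these genes passed the same test between the rescue and the wild type: the count was 0 of 59, against 4.07% of all genes tested (2.3% higher and 1.78% lower). At an unadjusted p under 0.05 limma counted 7 of 59 (11.9%), against 16.2% of all genes tested, and with the replicate block 0 passed, against 8.06%. Ratios ran from 0.768 for KIFC1 to 1.18 for KIF15. All 59 confidence intervals lay within 1.5-fold on the deposited scale, as did 11309 of those of the 11542 genes tested. SOX11 itself was 3.70-fold higher in the rescue than in the wild type. CDC25B had a ratio of 1.07, PLK1 of 1.07 and MYBL2 of 0.973. PTTG1 had one of 0.879, with all 3 rescue libraries below all 3 wild-type libraries and a limma adjusted p of 0.120. The median difference was 0.07, with 43 genes above 0 and 16 below. It was 0.01 without wild-type replicate 2, 0.11 without wild-type replicate 3 and 0.03 without batch 2.

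Wild-type replicate 2 stood apart in these genes. It was the lowest of its group for 43 of the 59 (72.9%), whereas it was the lowest for 38.3% of all genes tested. Of all 9 libraries it was the lowest for 36 of the 59 (61%), against 16.7% of all genes tested. Its median deviation from the group mean was -0.09 on the deposited log2 scale, against 0.00 for all genes, and its share of normalized counts in these genes was 1.11%, against 1.23% and 1.31% in the other wild-type libraries. Without it, 4 genes were called between knockout and wild type, against 11.9% of all genes tested, KIF15 joining those 3 as lower in the knockout.

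**Figure D5:**
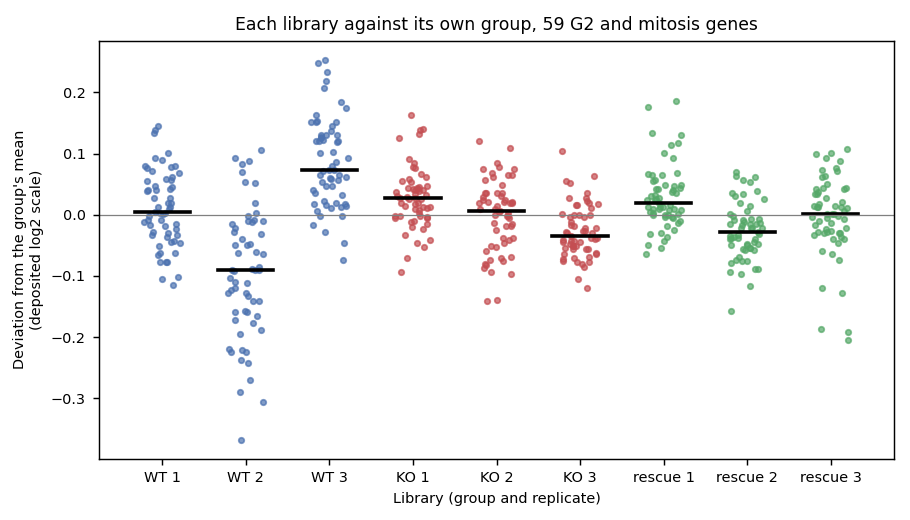
Deviation of each of the 59 tested genes from the mean of its own group, per library, on the deposited log2 scale, with black lines at the median. The median is -0.09 in wild-type replicate 2 and 0.07 in wild-type replicate 3, while those of the knockout and rescue libraries lie between -0.03 and 0.03.

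Batch 2, which holds that library, was also lower in many of these genes than batches 1 and 3. With group and batch in the limma fit, 2 of the 59 genes were called, both lower in batch 2, against 10.3% of all genes tested (5.3% higher and 5.02% lower). HMMR had 2669, 3868 and 3725 normalized counts in the wild-type, knockout and rescue libraries of batch 2, against 3636, 4471 and 4167 in batch 1 and 4244, 4720 and 4145 in batch 3 (limma adjusted p = 0.0187). KIF20A, a kinesin of the central spindle, had 2692, 2938 and 3136 in batch 2, against 3283, 3207 and 3648 in batch 1 and 3468, 3134 and 3604 in batch 3 (limma adjusted p = 0.0255). In both, each library of batch 2 was below the libraries of its own group in the other batches. Without wild-type replicate 2 neither was called, against 4.34% of all genes tested. The KIF20A call was also lost without wild-type replicate 1, knockout replicate 1, or rescue replicate 1 or 2.

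The difference of batch 2 was below 0 for 44 of the 59 genes, with a median of -0.07 against 0.00 over all genes tested, and for all 6 tested kinetochore genes. Without wild-type replicate 2 this median was -0.02, and without wild-type replicate 3 it was -0.04. Over the S phase genes, 6 of 32 were higher in batch 2 (CDC6, FEN1, MCM3, MCM6, MCM7 and PCNA) and 0 lower. This was 18.8%, against 10.3% of all genes tested. Among 44 other G2 and mitosis genes 7 were lower and 0 higher (15.9%), and among 14 of centrosome duplication 4 and 0 (28.6%). Of 22 MuvB, E2F and NF-Y genes 3 were higher and 2 lower. Of 29 other kinetochore genes 2 were higher and 2 lower, and of 17 of G1, arrest and the G2 checkpoint 1 and 2. None of 17 genes of the anaphase-promoting complex or 12 of cohesin and condensin II was called. These list counts were not recomputed without single libraries. What the batches differed in is not given in the labels beyond their number, and its part in the differences between groups was not tested beyond the block and the omissions reported here.

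Promoter content was set beside the differences. The median knockout minus wild type difference was 0.07 over the 36 tested genes with CHR letters and -0.01 over the 13 without, and between rescue and knockout it was -0.02 and -0.06. With a CCAAT box the medians were 0.05 (34 genes) and 0.06 without (15 genes). Of the 3 genes called in the knockout, PLK1 holds both elements, and CDC25B and MYBL2 hold neither. Among the genes called in the rescue, KIF15 holds CHR letters but no CCAAT box, and CDC20 holds both. KIF15 and PTTG1 also hold the SOX core. The other called genes with a matched promoter do not, and WEE1 was not matched.

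The wider pathway was described by lists of related genes. Of 44 other genes of G2 and mitosis, 2 rose and 2 fell in the knockout (9.09%), against 12.7% of all genes tested. NEK2, a centrosomal kinase, had 2820, 2779 and 3450 normalized counts in the wild type and 4051, 4572 and 4120 in the knockout, a 1.41-fold increase (limma adjusted p = 0.00335). TRIP13, an ATPase that takes checkpoint complexes apart, rose 1.15-fold. PIMREG, a mitotic regulator, fell from 1572, 1491 and 1380 to 813, 904 and 864, which is 1.72-fold lower (limma adjusted p = 0.000131), and STMN1 (stathmin), which destabilizes microtubules, was 1.32-fold lower. Groups did not overlap for NEK2 or PIMREG. The PIMREG, STMN1 and NEK2 calls held without any single library, while that of TRIP13 was lost with no filter, in a fit on the compared groups alone, and without wild-type replicate 2 or 3 or any one knockout library.

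In the rescue against the knockout, 3 genes of that list were higher and 6 lower (20.5%), near the 22.1% of all genes tested. STMN1 was 1.68-fold higher, PIMREG 1.65-fold and DEPDC1B 1.33-fold, while NEK6, a mitotic kinase, was 2.72-fold lower. Against the wild type the rescue had 3 genes of the list higher (STMN1, DEPDC1B and NEK9, the last 1.22-fold) and 1 lower (NEK6, 2.53-fold), 9.09% against 4.07% of all genes tested. The DEPDC1B call against the wild type was lost without rescue replicate 1 or 3, and that of NEK9 in a fit on the compared groups alone and without wild-type replicate 2 or 3 or any one rescue library. STMN1 had 33626, 36197 and 38103 normalized counts in the wild type, 26503, 28508 and 26655 in the knockout and 45487, 47297 and 44621 in the rescue. Its 3 groups did not overlap, and the rescue was 1.27-fold above the wild type (limma adjusted p = 0.00624).

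Of 22 MuvB, E2F and NF-Y genes that regulate the program, 0 rose and 2 fell in the knockout (9.09%, against 12.7% of all genes tested): NFYA, 1.17-fold lower, and NFYB, 1.21-fold lower, subunits of the factor that binds the CCAAT box. Both calls were lost without wild-type replicate 1 or 3 or knockout replicate 2 or 3, and in a fit on the compared groups alone, NFYA also without wild-type replicate 2 and NFYB also without knockout replicate 1. NFYB was 1.29-fold higher in the rescue than in the knockout, and 2 of the 22 were higher there and 0 lower (9.09%, against 22.1%). The other was E2F3, a call lost without knockout replicate 1 or 3 or any one rescue library. Of 17 genes of the anaphase-promoting complex and its partners, 1 was called in the knockout (5.88%, against 12.7% of all genes tested). In the rescue against the knockout 2 were called (11.8%, against 22.1%). ANAPC5 was 1.17-fold higher in the knockout and 1.23-fold lower in the rescue than in the knockout, and ANAPC1 1.18-fold lower. The knockout call of ANAPC5 was lost without wild-type replicate 1 or 3 or any one knockout library. The ANAPC1 call was lost on the log2(CPM + 1) scale, with quantile normalization, with no filter, and without knockout replicate 1 or 2 or any one rescue library. None of 29 other kinetochore genes, 12 of cohesin and condensin II and 14 of centrosome duplication was called in the knockout, against 12.7% of all genes tested. Between rescue and knockout, 1 kinetochore gene was higher (CENPU), which is 3.45% of that list, against 22.1% of all genes tested. The CENPU call was lost with no filter, median centring or a constant prior variance, and without knockout replicate 1 or 3 or any one rescue library. NCAPD3 of condensin II was lower (8.33% of its list), a call lost without rescue replicate 3, and no centrosome gene was called.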

How the data were processed

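RNA-seq was analysed from the deposited table, which holds log2 values for all 9 libraries. The submitters' processing notes name GRCh38.p13, kallisto 0.46.1, DESeq2 1.24.0, Trimmomatic 0.40, FastQC 0.11.9 and R 4.3.2. The name of the deposited table calls the log2 values log CPM, but they share 1 lowest value and fall on a variance-stabilized scale. Inverting this scale, with the constant 388 that its lowest value gives, yielded normalized counts. Of low values of genes with a single GENCODE transcript, 83.7% to 98.5% per library then lay within 0.05 of a whole number of reads. The worth of 1 read was chosen in each library to maximize this share, so it is fitted and not an independent check. The tests were run on the values as deposited.

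A limma 3.58.1 model (R 4.3.3) took group means over all 9 libraries and a trended prior variance. It covered the 11542 genes that reached 1 CPM in 3 or more libraries, with Benjamini-Hochberg adjustment. The procedure was tested on simulated data with the same dispersion for every gene and neither a batch effect nor an outlying library. That test therefore does not measure the error of the calls in these libraries. Folds are ratios of mean normalized counts. The replicate number is the batch in the labels and so pairs the libraries. Same-numbered libraries deviated together, with correlations of 0.187 to 0.51, and 9 of 9 correlated best with their own number.

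The genes and lists were chosen with earlier results of these data known. Genes named are fixed anchors (CDK1, CCNB1, CCNB2, PLK1, AURKA, AURKB, BUB1, CDC20, BIRC5, TOP2A, MKI67, FOXM1 and MYBL2), the called genes, the extremes of each role in the knockout comparison, and up to 4 called genes of each other list by adjusted p. HMGB2, CDC25C, SPC25, NUF2, KIFC1, KIF20A, SMC2, CKAP2, KIF2C and the S phase genes were also named after their values were seen. Alternatives varied the filter, scale, normalization, prior variance, block and libraries. Positions and exon lengths are from GENCODE release 29, and matplotlib 3.10.9 drew the plots. The labels' protocols name 2 library kits and both paired and single ends, without saying which library had which.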

Additional observations from a re-analysis of the deposited data

How the results depend on the processing

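No called gene named here changed sign under any alternative tried. Over all genes named and all alternatives, 1998 values kept their side of the threshold, 218 lost a call and 13 gained one. The 1998 include values of genes never called, which had no call to lose, so these totals do not measure how stable the calls were. With the replicate block the knockout had 8 of 59 genes called in place of 3, and 5 with the block and without wild-type replicate 2, a setting added after the data had been seen. Leaving out 1 library or 1 batch moved the knockout count between 0 (without batch 1) and 6 (without wild-type replicate 3), the rescue against knockout count between 1 (without batch 1) and 5, and the batch 2 count between 0 (without wild-type replicate 2) and 3. Of all genes tested, 4.73% were called in the knockout without batch 1 and 10.9% without wild-type replicate 3. Between rescue and knockout it was 9.91% without batch 1, and for batch 2 it was 4.34% without wild-type replicate 2. The rescue against wild type count was 0 under each setting tried. Counts under the other settings (2 other filters, log2(CPM + 1), quantile normalization, median centring, other prior variances and fits on the compared groups alone) stayed within 1.5 times the reported ones. The 3 libraries per group limit the precision, and changes well under 1.5-fold could be missed.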

Other observations

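The S phase and G1 genes, which come before G2 in the cycle, were measured in the same libraries. Of 32 S phase genes, 0 rose and 1 fell in the knockout (GINS2, of the replicative helicase, 1.19-fold lower; 3.12%, against 12.7% of all genes tested), a call lost in a fit on the compared groups alone and without wild-type replicate 1 or 2 or any one knockout library, and 7 were lower with the replicate block, which called 21.5% of all genes tested. Between rescue and knockout, 2 S phase genes were higher (UHRF1 and RRM2) and 1 lower (RPA2), 9.38% against 22.1% of all genes tested. Each of these calls was lost without knockout replicate 1 or 3. Of 17 tested genes of G1, arrest and the G2 checkpoint, 1 rose and 2 fell in the knockout (17.6%, against 12.7% of all genes tested). CDK6, a G1 kinase, had 522, 344 and 252 normalized counts in the wild type, 1055, 800 and 851 in the knockout and 248, 162 and 129 in the rescue. The knockout libraries lay above all others, with a 2.42-fold increase over the wild type (limma adjusted p = 0.00243). BTG2, an antiproliferative gene, was 1.94-fold lower in the knockout, and CDK2, the kinase of S phase entry, 1.35-fold lower. CDKN1A, the CDK inhibitor p21, had 5600, 4100 and 5118 in the rescue against 7902, 7140 and 8437 in the wild type and was 1.58-fold lower there (limma adjusted p = 0.00576). That call was lost without batch 1 or batch 3. Against the wild type, 0 of the 17 were higher in the rescue and 2 lower (11.8%, against 4.07% of all genes tested). CCND1 was the other, a call lost without any one rescue library. Between rescue and knockout, 2 of the 17 were higher (CDK2 and BTG2) and 2 lower (CDK6 and CDKN1A), 23.5% against 22.1%.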
